A study of Mus musculus with 8 samples.

Results

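The AP-1 and EGR immediate early genes were followed in sorted leukaemic bone marrow cells of mice with or without knockdown of Fubp1, whose product binds single-stranded DNA and RNA and is known from its action on Myc. The set held 10 genes, taken by symbol from a table of 47729: the FOS family genes Fos, Fosb, Fosl1 and Fosl2, the JUN family genes Jun, Junb and Jund, the related bZIP gene Atf3, and the zinc finger genes Egr1 and Egr2. All 10 had counts in every library and all 10 were among the 13462 genes tested.

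The libraries came from 4 mice with an shRNA against Fubp1 and 4 mice with a scrambled shRNA, all labelled C57BL/6, with 1 library per mouse. Both groups carried BCR-ABL1, the oncogenic tyrosine kinase that drives chronic myeloid leukaemia, in a retrovirus with a red fluorescent reporter, and the shRNA in a lentivirus with the Venus reporter. Per the series' design text, the infected marrow came from donors given 5-fluorouracil and was grafted into recipients irradiated with 900 cGy, and live cells with both reporters and without lineage markers were sorted into TRIzol. The sources used here do not give the ages of the mice. The sorted cells of a mouse are a mixture, so fewer cells of a type and less RNA per cell cannot be told apart in any value below.

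AP-1 is a dimer of a JUN protein with a FOS, JUN or ATF partner, held together by a leucine zipper, that binds DNA through the adjoining basic region. EGR1 and EGR2 bind GC-rich DNA through zinc fingers. Growth factors, cytokines and stress act through MAP kinases, serum response factor and CREB family proteins to switch these genes on within minutes, without new protein synthesis, and their mRNAs decay fast. In myeloid cells EGR1 is best known for its part in macrophage differentiation, and AP-1 is one of the end points of signalling by BCR-ABL1.

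The members share a low number of exons, but not a short gene span. By the GENCODE M21 annotation (GRCm38), the main coding transcript of every member had 4 exons or fewer, and that of Jun, Junb and Jund had 1, against a median of 9 exons over the tested coding genes, of which 19.7% had 4 or fewer. Fos lies on chromosome 12 from 85473890 to 85477273 (plus strand), Jun on chromosome 4 from 95049034 to 95052222 (minus strand), Atf3 on chromosome 1 from 191170296 to 191218039 (minus strand) and Fosl2 on chromosome 5 from 32135801 to 32157842 (plus strand). Their 3′ UTRs held 4, 4, 3 and 8 copies of ATTTA, the core of AU-rich elements that mark short-lived mRNAs. Of the other members Egr2 held 3 copies, Junb and Egr1 2 each, and Fosb, Fosl1 and Jund 1 each. Over the 10823 tested genes with a 3′ UTR of at least 100 bases the median was 1 copy. Per kilobase of 3′ UTR, Fos had 4.91 copies, a density that 6.80% of those genes reached, and Junb 4.12, which 10.3% reached. Fosl2, with a 3′ UTR of 4653 bases, had 1.72, which 41.1% reached, and Fosb had 0.466, which 67.1% reached.

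The 250 bases before the start site of Fos, Jun and Atf3 are shown as examples. Each holds a match to a response element near its start. Jun and Atf3 had the library pattern described below while Fos, as the gene that differed least, did not. Egr2, with such a match from 56 to 51 bases before its start and the same library pattern, is not shown. The sequences are from RefSeq (GRCm38.p6), read along the gene from 5′ to 3′, and capitals mark matches to the motifs searched: TGACGT, the core of the cAMP response element, TGACATCA, the AP-1-like site of the Jun promoter, and TATAAA.
Fos, chr12:85473640-85473889, plus strand: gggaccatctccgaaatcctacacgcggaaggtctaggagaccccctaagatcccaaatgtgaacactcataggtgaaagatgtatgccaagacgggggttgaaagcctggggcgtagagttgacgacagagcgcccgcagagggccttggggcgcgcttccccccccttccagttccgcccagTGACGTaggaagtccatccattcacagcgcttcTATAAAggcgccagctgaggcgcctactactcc
Jun, chr4:95052223-95052472, minus strand: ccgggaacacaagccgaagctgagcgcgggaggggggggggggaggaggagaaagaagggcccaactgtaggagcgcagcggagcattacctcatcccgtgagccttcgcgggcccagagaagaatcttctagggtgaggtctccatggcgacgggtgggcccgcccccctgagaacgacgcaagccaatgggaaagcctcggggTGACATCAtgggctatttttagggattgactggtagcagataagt
Atf3, chr1:191183334-191183583, minus strand: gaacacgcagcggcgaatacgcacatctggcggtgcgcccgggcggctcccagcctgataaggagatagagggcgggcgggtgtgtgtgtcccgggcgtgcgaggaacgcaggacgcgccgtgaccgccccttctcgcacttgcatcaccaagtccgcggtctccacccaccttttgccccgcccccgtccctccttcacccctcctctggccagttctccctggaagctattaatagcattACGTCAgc
Fos held TGACGT from 66 to 61 bases before the start and TATAAA from 33 to 28. Jun held TGACATCA from 45 to 38 bases before its start, and Atf3 held TGACGT on the opposite strand from 8 to 3 bases before its start. RefSeq windows were at hand for 8 members, all but Fosl1 and Egr1, and sites further upstream than 250 bases were not searched. The window of Fosl2 ends 671 bases inside the main GENCODE transcript and that of Jund ends 1210 bases before its start, so neither lies directly upstream of the GENCODE start. The start used for Atf3 is 7 bases from that of its main GENCODE transcript. It lies inside the annotated gene, which extends upstream to 191218039. TGACGT occurred on either strand in 3 of the 8 (Fos, Atf3 and Egr2) and in 6.47% of all 32851 windows of this length. The EGR site GCGNGGGCG, searched on both strands, occurred in 2 of the 8 (Fosb and Fosl2, in Fosl2 inside the GENCODE transcript) and in 4.70% of all windows. The CArG box, the site of serum response factor, occurred in Egr2 and in 1.47% of all windows. TGACATCA, on both strands, occurred in 1 of the 8 and in 2.93% of all windows, and TATAAA, on the coding strand, in 1 of the 8 and in 7.59%. The consensus AP-1 site TGACTCA, in 4.46% of all windows, had 0 matches in these 8.

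Expression is given as CPM, the counts of a gene per 1000000 counts of its library after TMM scaling, and every log2 fold change is Fubp1 shRNA over scrambled shRNA. Of the 10 members 1 rose and 0 fell by edgeR's quasi-likelihood test (adjusted p under 0.05 over all tested genes), and DESeq2 gave the same counts. At an unadjusted p under 0.05 there were 3 members, all higher, against 33.5% of all tested genes in either direction. The gene that rose was Fosl2, at a log2 fold change of 2.24. Over all tested genes 15.3% were called, 8.02% higher and 7.29% lower, so that 1 of 10 called, and called higher, is a share near the background. The fitted change was above 0 in all 10 members, with a median of 0.75 against 0.00 over all tested genes, of which 50.2% were above 0. The members move together from library to library, as shown next, so these 10 signs are not independent of each other. In none of the 10 did the 4 Fubp1 shRNA libraries lie clear of the 4 scrambled ones, which they did in 20.7% of all tested genes, upward in 9.54% and downward in 11.1%.

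**Figure D1:**
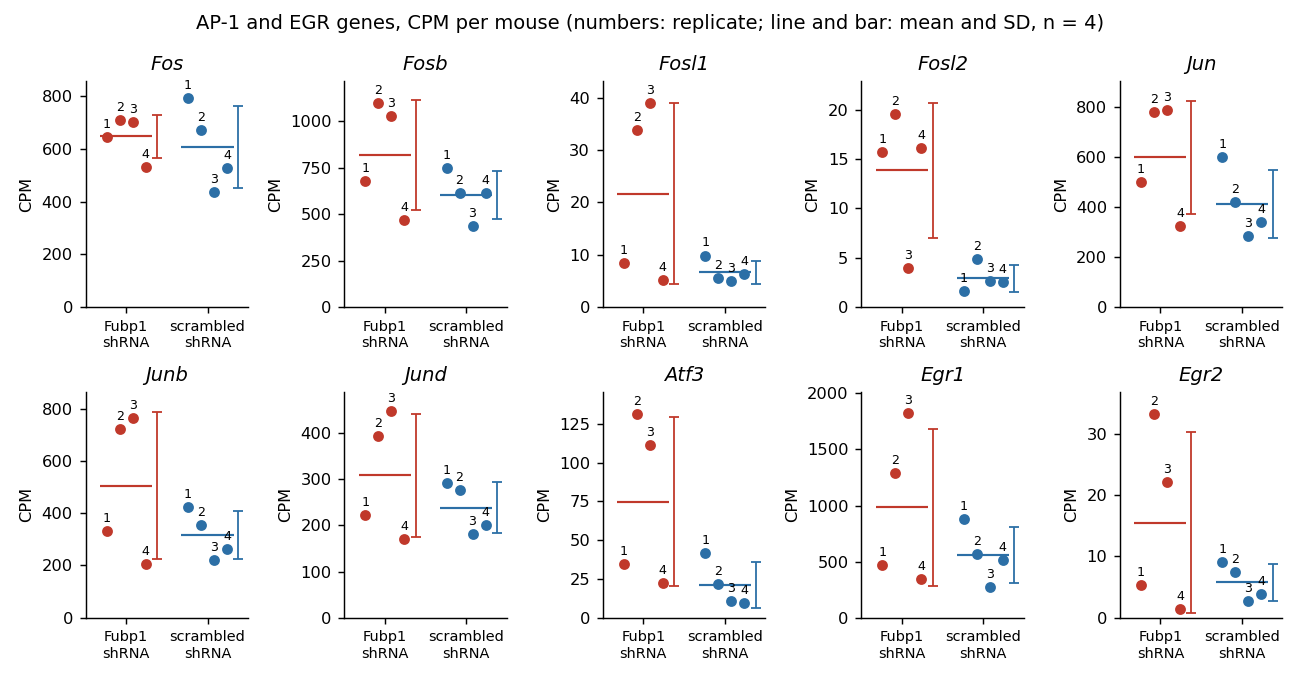
CPM of the 10 genes in each mouse, Fubp1 shRNA at left and scrambled shRNA at right of each panel, each axis starting at 0; points carry the replicate number, and lines and bars give the mean and SD (n = 4 per group). Fubp1 shRNA replicates 2 and 3 are the highest libraries in 8 of the 10 panels, while Fosl2 is high in replicates 1, 2 and 4.

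The knockdown libraries did not behave as 1 group. Fubp1 shRNA replicates 2 and 3 were the 2 highest of the 8 libraries for 8 of the 10 members, all but Fos and Fosl2. The same 2 libraries were the top 2 for 6.13% of all tested genes; these 2 libraries were singled out after the values were seen. Summed over the 10 members, expression was 2916, 5215, 5735 and 2093 CPM in Fubp1 shRNA replicates 1 to 4, against 3799, 2952, 1855 and 2481 CPM in scrambled shRNA replicates 1 to 4. Fubp1 shRNA replicates 1 and 4 thus lay within the range of the scrambled libraries, and scrambled replicate 1 was the highest of its group.

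**Figure D2:**
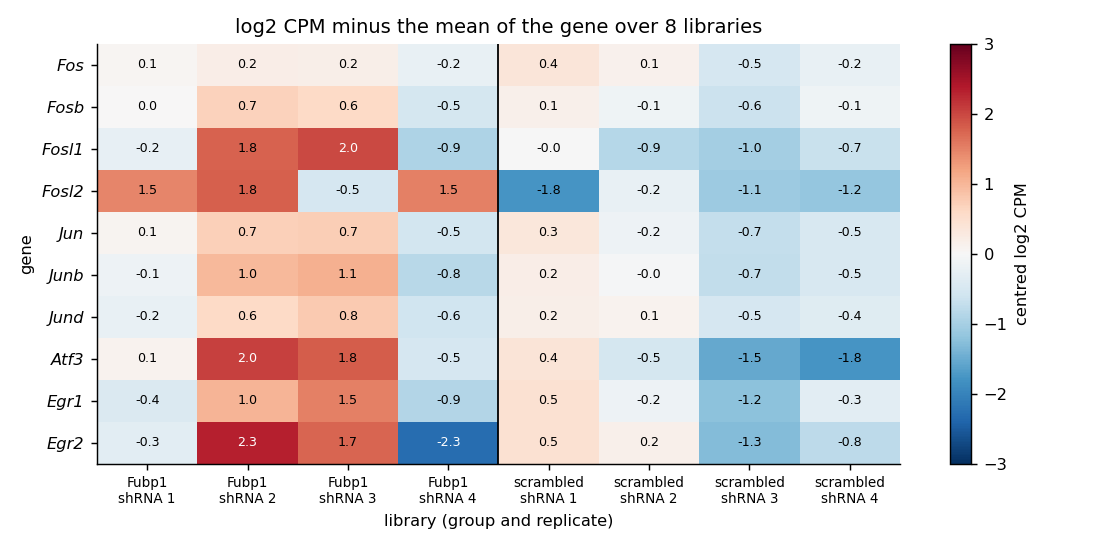
Centred log2 CPM (each gene minus its mean over the 8 libraries) for the 10 genes in rows and the libraries in columns, Fubp1 shRNA at left of the black line. Red columns at Fubp1 shRNA 2 and 3 run through 9 or more rows, and the Fosl2 row stands apart, red at Fubp1 shRNA 1, 2 and 4 and blue at Fubp1 shRNA 3.

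Among the FOS genes, Fosl2 was the member that rose. It encodes FRA2, a FOS-related partner of JUN proteins that lacks the strong activation domain of FOS. It measured 15.7, 19.6, 3.97 and 16.1 CPM in Fubp1 shRNA replicates 1 to 4, against 1.67, 4.83, 2.65 and 2.52 CPM in scrambled shRNA replicates 1 to 4. Replicates 1, 2 and 4 of the knockdown lay above every scrambled one, while replicate 3 lay among the scrambled libraries, below scrambled replicate 2. Fosl2 averaged 13.8 ± 6.80 CPM in the Fubp1 shRNA and 2.92 ± 1.35 CPM in the scrambled libraries (SD, n = 4 per group). The difference was 2.24 on the log2 scale (SE 0.51, adjusted p = 0.0272 by edgeR). In the authors' deposited table the log2 fold change of Fosl2 was 1.59, with an adjusted p of 1.64e-05, and Fosl2 was the only member called there, where 21.3% of genes with an adjusted p were.

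The call of Fosl2 rested on few mice. It was lost without any 1 of Fubp1 shRNA replicates 1, 2 and 4 (adjusted p = 0.0636, 0.0634 and 0.0525) or scrambled replicates 1, 3 and 4 (0.0735, 0.0756 and 0.0591), by edgeR. It held without Fubp1 shRNA replicate 3 (log2 fold change 2.54, adjusted p = 0.00259) and without scrambled replicate 2 (2.60, adjusted p = 0.0478). It also ended with limma-voom (adjusted p = 0.0568) and without a filter on low counts (adjusted p = 0.0660 by edgeR), while the log2 fold change stayed between 2.04 and 2.60 in all 15 alternatives.

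Markers of early granulocytes and of monocytes were high in the same 3 knockdown libraries as Fosl2. The summed level of the 8 early granulocyte genes, among them the granule enzyme genes Mpo, Elane, Prtn3 and Ctsg, was 1973, 949.8, 86.7 and 3609 CPM in Fubp1 shRNA replicates 1 to 4, against 35.9, 165, 333 and 84.1 CPM in scrambled replicates 1 to 4. It was high in the same 3 knockdown libraries as Fosl2 and within the scrambled range in replicate 3. Among those 3 libraries the order differed, with Fosl2 highest in replicate 2 (19.6 CPM), where these markers were lowest. By edgeR 0 of the 7 tested genes of the list passed, with adjusted p between 0.0522 and 0.0717 and a median log2 fold change of 3.38. All 7 had an unadjusted p under 0.05, against 33.5% of all tested genes, and DESeq2, which tested all 8, called 8 higher. Monocyte and macrophage markers summed to 129.9, 31.2, 12.98 and 159.99 CPM in Fubp1 shRNA replicates 1 to 4, against 6.16, 12.3, 17.8 and 11.7 CPM in scrambled replicates 1 to 4. Nkg7, which carries nearly all of the T and NK cell list, was high in the same 3 libraries as well. It measured 27.6, 18.8, 2.00 and 86.6 CPM in Fubp1 shRNA replicates 1 to 4, against 1.804, 5.57, 8.10 and 2.25 CPM in scrambled replicates 1 to 4, while Cd3e and Cd2 were at 0 in every library. For the monocyte markers too, replicates 1, 2 and 4 of the knockdown were above every scrambled library and replicate 3 was among them. Of the 7 tested genes of that list edgeR called 0, and 6 had an unadjusted p under 0.05, against 33.5% of all tested genes. DESeq2, run on all 12 genes of the list, called 7 higher. Over all genes it called 2035 of the 26258 it was run on higher, and those include genes below the count filter of edgeR. The other 9 members did not show this split of replicate 3 from the rest: their mean centred log2 CPM was -0.12, 1.15, 1.16 and -0.82 in Fubp1 shRNA replicates 1 to 4, against 0.28, -0.17, -0.91 and -0.58 in scrambled replicates 1 to 4. The part of these markers in the result for Fosl2 was not tested.

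**Figure D3:**
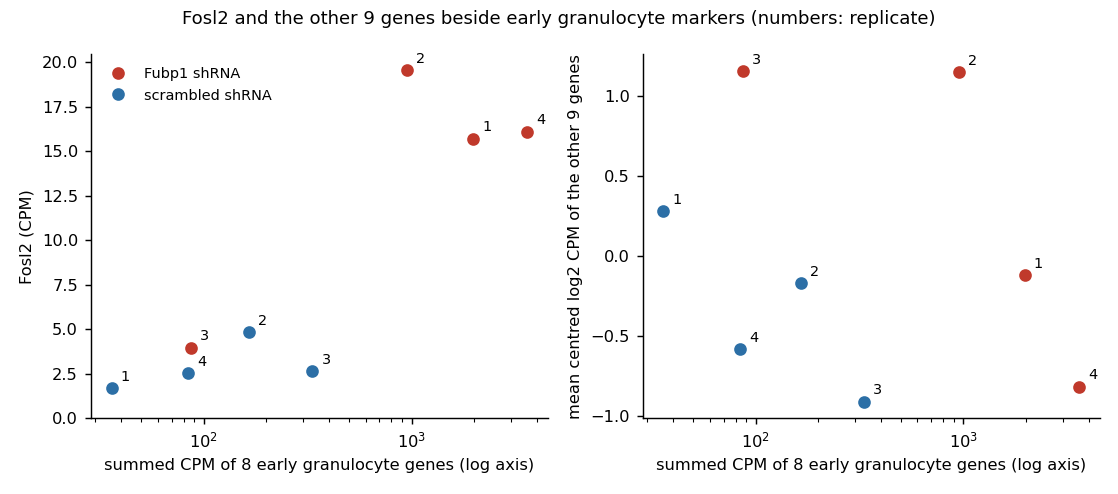
Fosl2 in CPM (left) and the mean centred log2 CPM of the other 9 genes (right) against the summed CPM of 8 early granulocyte genes on a log axis; each point is a mouse, with its replicate number. The 3 knockdown mice with 949.8 CPM or more of the markers have 15.7 CPM or more of Fosl2, whereas the highest levels of the other 9 genes are in Fubp1 shRNA 2 and 3, at 949.8 and 86.7 CPM of the markers.

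Fos, the founding member of the family, had the smallest difference of the 10. It measured 647, 710.2, 703 and 532 CPM in Fubp1 shRNA replicates 1 to 4, against 792, 673, 438 and 527 CPM in scrambled replicates 1 to 4. The range of the knockdown lay inside that of the scrambled libraries. The log2 fold change was 0.09 (SE 0.18, adjusted p = 0.768 by edgeR), and it changed sign without scrambled replicate 3, to -0.045.

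Fosb, whose product pairs with JUN proteins as FOS does, measured 679, 1097, 1029 and 469 CPM in Fubp1 shRNA replicates 1 to 4, against 749.9, 615, 436 and 616 CPM in scrambled replicates 1 to 4. Fubp1 shRNA replicates 2 and 3 were above the other 6 libraries, and replicate 4 was near the lowest. The log2 fold change was 0.44 (SE 0.28, adjusted p = 0.313 by edgeR).

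Fosl1, which encodes FRA1, is itself a target of AP-1 and ERK signalling. It measured 8.42, 33.9, 39.0 and 5.22 CPM in Fubp1 shRNA replicates 1 to 4, against 9.85, 5.48, 4.88 and 6.29 CPM in scrambled replicates 1 to 4. Fubp1 shRNA replicates 2 and 3 stood far above the other 6 libraries, which lay within 4.88 to 9.85 CPM. The log2 fold change was 1.71 (SE 0.64, adjusted p = 0.103 by edgeR), and it passed in 1 of the 15 alternatives, without Fubp1 shRNA replicate 4 (2.03, adjusted p = 0.0452). Fosl1 overlaps Ccdc85b on the opposite strand, and the sources used here do not give the strand setting of the counting. Ccdc85b measured 20.8 ± 1.94 CPM in the Fubp1 shRNA and 21.3 ± 1.94 in the scrambled libraries (SD, n = 4 per group). Replicates 2 and 3 of the knockdown had 23.5 and 19.5 CPM of Ccdc85b, the highest and the third lowest of the 8 libraries, and the part of antisense reads in the values of Fosl1 was not tested.

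The 3 JUN genes showed 1 shape at different heights. Jun, the classic partner of FOS, measured 501, 781, 789.7 and 324 CPM in Fubp1 shRNA replicates 1 to 4, against 600.03, 421, 286 and 340.5 CPM in scrambled replicates 1 to 4. Junb, often a weaker activator that can oppose Jun and that restrains myeloid proliferation in mice, measured 330.05, 723, 765 and 204 CPM in the Fubp1 shRNA libraries, against 422, 356, 219 and 262 CPM in the scrambled ones. Jund, the most steadily expressed JUN gene in most cells, measured 222, 394, 448 and 170.2 CPM in the Fubp1 shRNA libraries, against 293, 277, 182 and 202 CPM in the scrambled ones. In each gene replicates 2 and 3 of the knockdown exceeded all other libraries. Replicate 1 lay among the scrambled libraries, as did replicate 4 for Jun, whereas for Junb and Jund replicate 4 was the lowest of all 8. The log2 fold changes were 0.54 (SE 0.33) for Jun, 0.68 (SE 0.42) for Junb and 0.37 (SE 0.32) for Jund, with adjusted p of 0.288, 0.301 and 0.458 by edgeR.

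Junb overlaps Prdx2, an abundant erythroid peroxiredoxin gene, on the opposite strand. Prdx2 measured 767, 724, 985 and 711 CPM in Fubp1 shRNA replicates 1 to 4, against 849, 897, 764 and 923 CPM in scrambled replicates 1 to 4, which is another order than that of Junb. Junos, the antisense partner of Jun, had 3 to 15 counts per library.

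Atf3, a stress-induced bZIP gene whose product pairs with JUN proteins and often represses, had a wide range. It measured 34.4, 131, 111.4 and 22.3 CPM in Fubp1 shRNA replicates 1 to 4, against 41.6, 21.9, 11.04 and 9.40 CPM in scrambled replicates 1 to 4. Replicates 2 and 3 of the knockdown lay above the other 6 libraries, and scrambled replicate 1 lay above the remaining knockdown libraries. Atf3 averaged 74.8 ± 54.5 CPM in the Fubp1 shRNA and 21.0 ± 14.8 CPM in the scrambled libraries (SD, n = 4 per group). The difference of 1.83 on the log2 scale (SE 0.69, adjusted p = 0.105 by edgeR) did not pass, nor did it in any of the 15 alternatives.

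Egr1 and Egr2 encode zinc finger activators of the same family, and Egr1 had by far the more counts. Egr1 measured 473, 1293, 1823 and 349 CPM in Fubp1 shRNA replicates 1 to 4, against 879.5, 571, 273 and 511 CPM in scrambled replicates 1 to 4. Egr2 measured 5.36, 33.1, 22.1 and 1.35 CPM in the Fubp1 shRNA libraries, against 9.13, 7.39, 2.70 and 3.82 CPM in the scrambled ones. Both genes were highest in replicates 2 and 3 of the knockdown, and Egr2 had both its highest and its lowest library within that group, 24.5-fold apart. The log2 fold changes were 0.82 (SE 0.56, adjusted p = 0.351) for Egr1 and 1.42 (SE 0.87, adjusted p = 0.294) for Egr2, by edgeR.

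**Figure D4:**
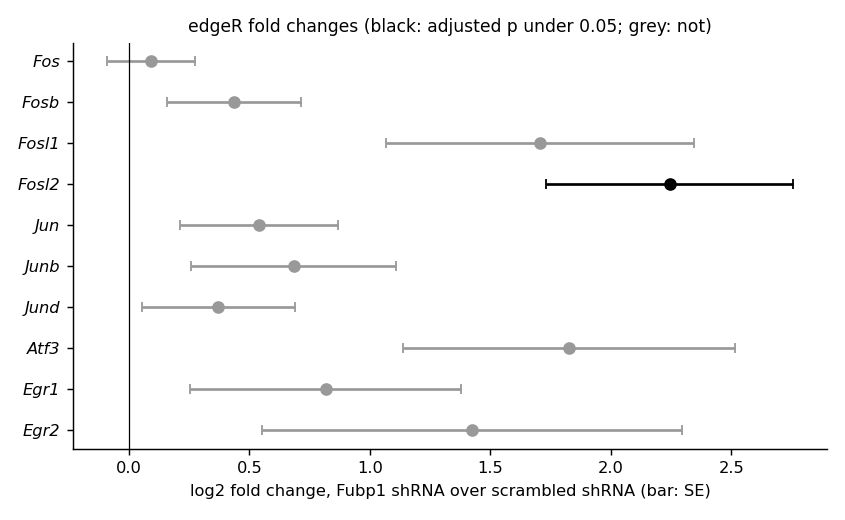
Log2 fold change of each gene, Fubp1 shRNA over scrambled shRNA, with its SE, from edgeR; black marks the gene with an adjusted p under 0.05. Fosl2 at 2.24 is the black point, Fos at 0.09 lies nearest to 0, and Atf3 at 1.83, Fosl1 at 1.71 and Egr2 at 1.42 have the widest bars among the rest.

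The spread between mice was larger in the knockdown group for 9 of the 10 members, all but Fos. These members move together, and the share of all tested genes with a wider knockdown spread was not counted. A wider spread was not particular to the members. Over all genes, pairs of knockdown libraries differed by a chi-square per degree of freedom of 24.3 to 88.9. Pairs of scrambled libraries differed by 10.7 to 34.3, and this measure also grows with total counts. The highest over the lowest library was 7.47-fold for Fosl1 in the Fubp1 shRNA and 2.02-fold in the scrambled group, 5.89- and 4.43-fold for Atf3, and 3.75- and 1.93-fold for Junb. For Fos it was 1.34-fold in the Fubp1 shRNA and 1.81-fold in the scrambled group.

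Divided by the length of all annotated exons, the level of Fos was the highest of the set, at 276 ± 35.1 CPM per kilobase in the Fubp1 shRNA and 258 ± 66.6 in the scrambled libraries (SD, n = 4 per group). Junb, Egr1, Jun and Jund came next in the Fubp1 shRNA libraries, at 219.7 ± 122, 219.6 ± 156, 188 ± 71.2 and 185 ± 80.0 CPM per kilobase. In the scrambled libraries these 4 lay at 125 to 143 CPM per kilobase, in the order Jund, Junb, Jun, Egr1, and neighbours among these 4 differed by less than their SDs. Fosb followed, at 131 ± 47.5 and 96.8 ± 20.6. Then came Atf3 at 34.7 ± 25.3 in the Fubp1 shRNA and 9.75 ± 6.88 in the scrambled libraries, Fosl1 at 10.6 ± 8.51 and 3.26 ± 1.10, and Egr2 at 4.56 ± 4.36 and 1.70 ± 0.885. Fosl2 was the lowest in both groups, at 1.43 ± 0.703 in the Fubp1 shRNA and 0.301 ± 0.139 CPM per kilobase in the scrambled libraries. The step down from Fosb to Atf3 was larger than the SD of either gene in both groups, while Atf3 and Fosl1 were within the larger of their SDs in both. Exon lengths are from GENCODE M21, and the sources used here do not name the annotation behind the counts.

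Ratios between members of a family overlapped between the groups in each of the 6 pairs compared. The log2 ratio of Junb to Jun averaged -0.36 ± 0.32 in the Fubp1 shRNA and -0.38 ± 0.11 in the scrambled libraries, and that of Fosb to Fos 0.27 ± 0.39 and 0.00 ± 0.16 (SD, n = 4 per group). Fosl2 over Fos was -5.36, -5.18, -7.47 and -5.05 in Fubp1 shRNA replicates 1 to 4, against -8.89, -7.12, -7.37 and -7.71 in scrambled replicates 1 to 4. Replicate 3 of the knockdown again lay among the scrambled libraries.

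Genes outside the set with the most similar profile were sought by Pearson's r between log2 CPM and the mean centred log2 CPM of the 10 members over the 8 libraries, as a description. The closest was Zfp36 (r = 0.99), which encodes tristetraprolin, a protein that binds AU-rich mRNAs and speeds their decay. It measured 321, 901, 811 and 193 CPM in Fubp1 shRNA replicates 1 to 4, against 350.2, 241, 154 and 144 CPM in scrambled replicates 1 to 4. Psd (0.97), Nfkbia (0.97), which encodes the NF-kB inhibitor alpha, the kinase gene Dyrk2 (0.97), Synrg (0.97) and the immediate early gene Ier2 (0.97) followed. After centring within groups r lay between 0.95 and 0.99 for these 6 genes. Of the 10 members themselves, Fosl2 had the lowest r with the mean of the other 9, at 0.16, and -0.40 after centring within groups, while the other members lay between 0.75 for Fos and 0.97 for Jun.

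Of 50 related immediate early genes 44 were tested, and 11 rose and 1 fell, against 8.02% and 7.29% of all tested genes. Their median log2 fold change was 0.97, and this list, like the set itself, was drawn up with results of these data known. Socs3, a feedback inhibitor of JAK-STAT signalling, had the smallest p: it measured 13.98, 15.2, 20.0 and 19.2 CPM in Fubp1 shRNA replicates 1 to 4, against 6.66, 6.65, 5.43 and 7.15 CPM in scrambled replicates 1 to 4 (log2 fold change 1.40, SE 0.15, adjusted p = 0.00274 by edgeR). Here all 4 knockdown mice were above all scrambled ones, and the call held in each of the 15 alternatives. The stress gene Gadd45b (log2 fold change 2.03), the transcription factor gene Bhlhe40 (2.87), the phosphatase genes Dusp5 (1.75) and Dusp2 (2.09), the orphan receptor gene Nr4a2 (1.14) and the chemokine gene Cxcl2 (2.37) also rose. So did Rhob, Trib1, Klf4 and Klf6, while the polo-like kinase gene Plk2 fell (-1.39).

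These 12 genes did not share 1 profile. Bhlhe40, at 20.1, 113, 50.6 and 22.1 CPM in Fubp1 shRNA replicates 1 to 4, against 7.91, 8.96, 7.27 and 3.78 CPM in scrambled replicates 1 to 4, was highest in replicates 2 and 3, as most AP-1 and EGR members were, but clear of the scrambled libraries in all 4 mice. Dusp2, at 10.4, 10.9, 2.73 and 15.1 CPM, against 1.64, 3.42, 2.36 and 1.75 CPM, was low in replicate 3, as Fosl2 was, and so were Trib1 and Klf4, at 1.33 and 2.82 CPM there. Over the 44 tested genes the top 2 libraries were Fubp1 shRNA replicates 2 and 3 in 22, against 6.13% of all tested genes. These 2 libraries were singled out from the values of the members. Among the 22 were Zfp36, Nfkbia, Ier2, Btg2, Maff and Klf10, which did not pass the test. The number called fell to 1 without scrambled replicate 2 and to 3 without scrambled replicates 1, 3 or 4 or Fubp1 shRNA replicate 2. It was 7 without Fubp1 shRNA replicate 1. With DESeq2, run on all 50 genes of the list, it was 23. That test called 3588 of all 26258 genes, low-count genes included.

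**Figure D5:**
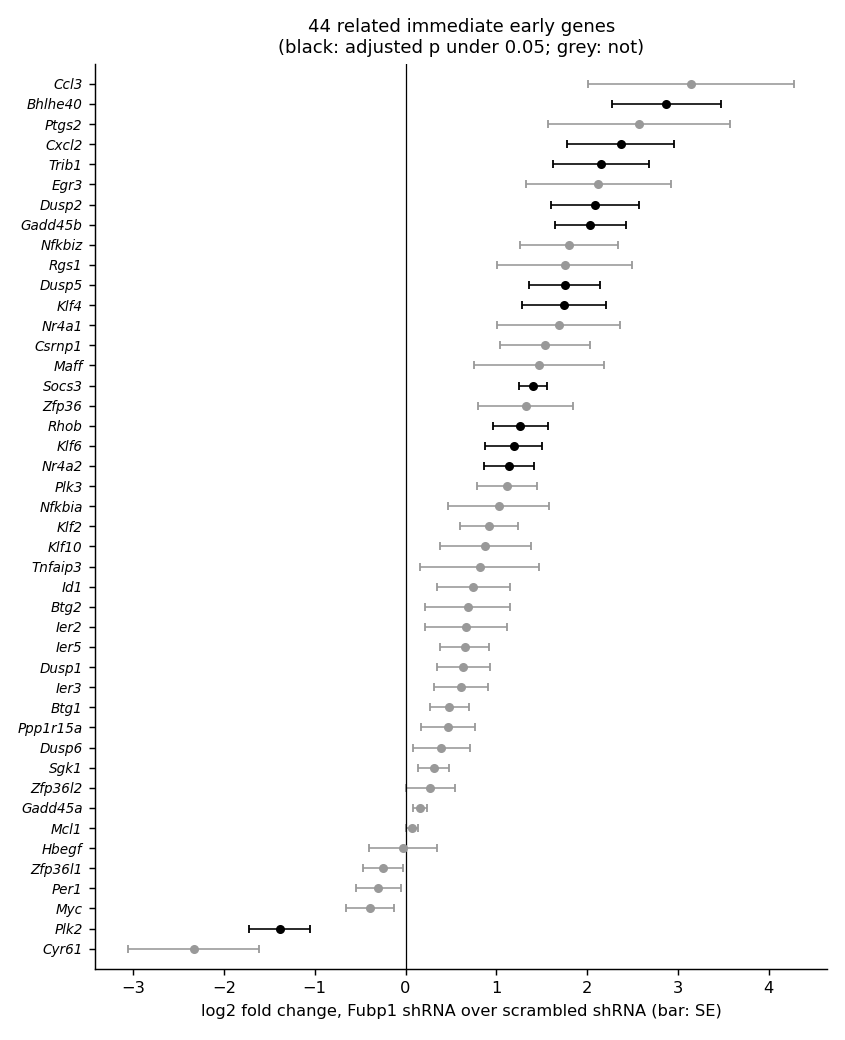
Log2 fold change with SE of the 44 tested related immediate early genes, Fubp1 shRNA over scrambled shRNA, from edgeR, ordered by size; black marks an adjusted p under 0.05. Of the 12 black points 11 lie right of 0, from Nr4a2 at 1.14 to Bhlhe40 at 2.87, and Plk2 lies left at -1.39.

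Upstream of these genes, 2 of 6 tested genes of serum response factor and its cofactors rose, against 8.02% of all tested genes, and 0 fell by edgeR. At an unadjusted p under 0.05 there were 3, against 33.5% of all tested genes, while DESeq2 called 3 higher and limma-voom 0. Srf itself measured 108, 153, 149.7 and 105 CPM in Fubp1 shRNA replicates 1 to 4, against 96.4, 96.1, 80.4 and 93.9 CPM in scrambled replicates 1 to 4 (log2 fold change 0.49, SE 0.14, adjusted p = 0.0450 by edgeR). All knockdown mice were above all scrambled ones, and replicates 2 and 3 were again the highest. Elk3, an ETS-domain partner of Srf, measured 13.6, 8.82, 2.57 and 26.6 CPM, against 1.30, 2.37, 3.53 and 1.62 CPM in the scrambled libraries (log2 fold change 2.54, adjusted p = 0.0398), and was low in replicate 3 as Fosl2 was. Of 23 tested MAP kinase pathway genes 3 rose and 1 fell, a share near the 15.3% of all tested genes: Mapkapk2, a p38 target kinase gene (log2 fold change 1.48), Rps6ka2 (1.09) and Map3k5 (0.88) rose, and the JNK gene Mapk9 fell (-0.39, SE 0.09).

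Of 19 tested genes for other bZIP proteins that pair with or resemble FOS and JUN, 4 rose and 2 fell, against 8.02% and 7.29% of all tested genes. Bach1, a repressor of haem-responsive genes, measured 67.9, 62.9, 73.1 and 64.5 CPM in Fubp1 shRNA replicates 1 to 4, against 48.0, 46.8, 42.5 and 49.8 CPM in scrambled replicates 1 to 4 (log2 fold change 0.52, SE 0.07, adjusted p = 0.00527 by edgeR). Atf5 (0.89), Batf (1.00) and Mafg (0.34) rose too. Crem, a cAMP-responsive relative of CREB, fell to 7.62, 8.39, 10.1 and 7.81 CPM in the knockdown, against 14.3, 14.6, 13.7 and 14.3 CPM in the scrambled libraries (log2 fold change -0.74, SE 0.12, adjusted p = 0.00876), and Atf1 fell by 0.33 on the log2 scale. Unlike the members, Bach1, Crem and Atf1 differed by similar amounts in all 4 knockdown mice.

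Downstream, 2 of 20 tested textbook targets of AP-1 and EGR proteins rose, a share near the 8.02% of all tested genes, and 0 fell by edgeR. At an unadjusted p under 0.05 there were 7, a share near the 33.5% of all tested genes. DESeq2, run on all 24 genes of the list, called 7 higher, against 2035 of the 26258 genes it was run on. Those 26258 include genes below the count filter of edgeR, which left 13462, so the 2 shares are not like for like. The 2 that rose by edgeR were the adhesion gene Icam1 and the growth factor gene Vegfa. Icam1 measured 17.2, 37.3, 25.6 and 13.9 CPM in Fubp1 shRNA replicates 1 to 4, against 7.96, 7.17, 6.93 and 5.13 CPM in scrambled replicates 1 to 4. Vegfa measured 40.9, 89.1, 82.2 and 49.5 CPM, against 34.8, 21.5, 18.8 and 32.4 CPM. Both genes were highest in replicates 2 and 3 of the knockdown. The EGR co-repressor genes Nab1 and Nab2 did not pass (log2 fold changes 0.28 and -0.22). Of 9 tested genes for turnover of JUN and FOS proteins and of AU-rich mRNA 0 rose and 1 fell, against 8.02% and 7.29% of all tested genes. The gene that fell was Khsrp, an AU-rich RNA binding paralog of Fubp1 (log2 fold change -0.21, SE 0.05, adjusted p = 0.0329 by edgeR).

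Total counts ran from 24042761 to 44761356 in the Fubp1 shRNA and from 22465303 to 38495006 in the scrambled libraries, and the lowest count of a member in any library was 56, for Fosl2 in scrambled replicate 4. Fubp1 itself measured 281, 228, 220.4 and 239 CPM in Fubp1 shRNA replicates 1 to 4, against 296, 284, 291 and 396 CPM in scrambled replicates 1 to 4 (log2 fold change -0.39, SE 0.12, adjusted p = 0.0604 by edgeR and 0.0145 by DESeq2), and its lowest 2 libraries were replicates 3 and 2 of the knockdown. Heat shock genes, which respond to handling as immediate early genes do, summed to 8919 to 9684 CPM in the Fubp1 shRNA and 9491 to 10652 CPM in the scrambled libraries, most of it Hsp90ab1. The inducible gene Hspa1b, whose reads can be shared with its near copy Hspa1a, measured 24.1, 4.95, 12.5 and 26.7 CPM in Fubp1 shRNA replicates 1 to 4, against 163, 42.0, 32.4 and 15.6 CPM in scrambled replicates 1 to 4. It was highest in scrambled replicate 1, the scrambled library with the most AP-1 and EGR expression, and lowest in replicates 2 and 3 of the knockdown; its part in the members' values was not tested. By edgeR 0 of 12 tested heat shock genes passed, and 4 had an unadjusted p under 0.05, a share near the 33.5% of all tested genes. DESeq2, run on all 14 genes of the list, called 2, both lower, against 1553 of the 26258 genes it was run on. Those again include genes below the count filter of edgeR, so the 2 shares are not like for like. Erythroid markers summed to 6994 to 11275 CPM in the Fubp1 shRNA and 8771 to 9755 CPM in the scrambled libraries. Within that list 3 of 12 genes rose by edgeR, Hbb-bs, Hbb-bt and Alas2 of haemoglobin and haem synthesis, against 8.02% of all tested genes. In the same list 4 fell, Ermap, Klf1, Epor and Car2, against 7.29% of all tested genes. Each of these called genes was without overlap between the groups, as were 20.7% of all tested genes. Megakaryocyte markers summed to 137 to 217 CPM in the Fubp1 shRNA and 68.7 to 86.5 CPM in the scrambled libraries. Among them 2 of 6 tested genes were higher by edgeR, Itga2b (adjusted p = 0.0028) and Gp1ba, against 8.02% of all tested genes. In neither the erythroid nor the megakaryocyte sum were replicates 2 and 3 of the knockdown the 2 highest libraries. Mature neutrophil markers summed to 7.21, 16.6, 1.02 and 43.3 CPM in Fubp1 shRNA replicates 1 to 4, against 2.75, 2.00, 8.18 and 1.71 CPM in scrambled replicates 1 to 4. Replicate 1 of the knockdown was thus within the scrambled range, unlike for the early granulocyte markers. B cell markers summed to at most 4.07 CPM in the Fubp1 shRNA and 1.09 CPM in the scrambled libraries, with 2 of the 8 B cell genes at 0 in every library. Stroma and endothelium markers summed to 762 CPM in Fubp1 shRNA replicate 1, a library high in Fosl2. They lay at 51.4 to 68.6 CPM in the other knockdown libraries and at 45.9 to 61.6 CPM in the scrambled ones. The part of these cells in the members' values was not tested.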

How the data were processed

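RNA was measured in 8 libraries, 4 Fubp1 shRNA and 4 scrambled shRNA, grouped and numbered by the sample titles, with columns matched to samples by the number shared with the sample description. Columns that could not be matched to a sample numbered 0. The values used are raw read counts for each gene, deposited by the authors as whole numbers. Beside them stand log2 fold changes by the authors, and p-values by the authors, raw and adjusted. CASAVA 1.8 and DESeq2 1.18.1 are named in the submitters' processing notes, and the sources used here do not name an aligner, a counting program, a strand setting or a genome build. The deposited fold changes may be moderated estimates and are kept apart from those computed here.

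Differences in counts were tested in R 4.3.3 by edgeR 4.0.16: filterByExpr by group, which left 13462 of 47729 genes, TMM scaling, a robust quasi-likelihood fit with the group as the only term, a two-sided F test and Benjamini-Hochberg adjustment over all tested genes at 0.05. SE is the fold change divided by the root of F. Total counts were 22465303 to 44761356 per library. Alternatives were no low count filter, a mean of at least 1 CPM, DESeq2 (1.42.0) size factors, upper quartile factors, DESeq2's Wald test, limma-voom (limma 3.58.1), the replicate number as a block, and leaving out each library.

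All 10 members are named, and of each other list up to 8 genes that pass, by smallest p; the 4 further called genes of the related immediate early list, and those given with a group's library pattern, were named after their values were seen. The 6 genes of most similar profile were sought among tested genes of at least 5 CPM. The members and lists were chosen with earlier results of these data known. Gene positions, exon lengths and 3′ UTRs were matched by Ensembl identifier in GENCODE M21, for all 10 members, and promoter windows by symbol in RefSeq.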

Additional observations from a re-analysis of the deposited data

Results flagged for a closer look

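Dixon's ratio of gap to range was applied to each group of 4 libraries for the members and the other genes named by rule, 44 genes and 88 groups in all; chance flags about 1 in 20 groups. It marked 2 values, or 2.27%. The level of Fubp1 in scrambled replicate 4, 396 CPM, stood apart from the 284 to 296 CPM of the other scrambled libraries. The level of Srf in scrambled replicate 3, 80.4 CPM, stood below the 93.9 to 96.4 CPM of the other scrambled libraries. No value of the 10 AP-1 and EGR members was marked in either group.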

How the results depend on the processing

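All 10 members kept a fitted change above 0 in all 15 alternatives, with the exception of Fos without scrambled replicate 3 (Fos ranged from -0.045 to 0.24 when a library was left out). The number of members called, 1, was 0 without a low count filter, 0 with limma-voom and 0 with the replicate block; each of these tests had 1 member at an unadjusted p under 0.05, and edgeR and DESeq2 each called 1 in the main settings. Leaving out a library in turn gave 0 to 1; without Fubp1 shRNA replicate 4 the member called was Fosl1 and not Fosl2. The number of related immediate early genes called, 12 of 44, was 4 of 50 without a low count filter, 23 of 50 with DESeq2 and 4 of 44 with the replicate block. It was 1 to 16 when a library was left out. The number of all genes called, 2062, was 3588 with DESeq2, 400 with the replicate block, and 526 to 3425 when a library was left out, fewest without scrambled replicate 2 and most without Fubp1 shRNA replicate 3. The cause of these shifts was not tested. Libraries with the same replicate number did not deviate together (correlations from -0.53 to -0.02, and 0 of 4 knockdown libraries correlated best with their own number), so the numbers are not taken as pairs. The group means of the members in CPM moved by less than 1 SD with DESeq2 size factors or plain library totals. Nothing says that the mice came from separate transductions, so p-values measure the spread between these mice.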
